A study of Mus musculus with 12 samples.

Results

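The 38 genes described here encode the enzymes of the tricarboxylic acid (TCA) cycle, the proteins that bring pyruvate into it, the itaconate enzyme, the enzymes that fill the cycle or draw from it, and the export of citrate. They were taken by name from a list (Cs, Aco1, Idh1, Idh2, Idh3a, Idh3b, Idh3g, Ogdh, Dlst, Dld, Sucla2, Suclg1, Suclg2, Sdha, Sdhb, Sdhc, Sdhd, Fh1, Mdh1, Mdh2, Pcx, Pdha1, Pdhb, Dlat, Pdk1, Pdk2, Pdk3, Pdp1, Mpc1, Mpc2, Me1, Me2, Acly, Acod1, Slc25a1, Glud1, Got1 and Got2), and all 38 were found among the 38887 genes of the tables. RNA-Seq was performed on bone marrow-derived macrophages (BMMs), which are bone marrow cells cultured for 6 days with 50 ng/ml M-CSF, from 3 WT and 3 IGF2BP2 KO mice aged 3 to 4 months. The KO line joined a floxed Igf2bp2 allele (B6.Cg-Igf2bp2tm1.1Thor/J), from which Cre removes exons 4 and 5, to Cre driven by the Lyz2 locus (29P2-Lyz2tm1(cre)Ifo/J), a driver of myeloid cells that is not strictly limited to them. The WT mice were littermates without a floxed allele, which could carry Cre or not, and the labels do not say which did. BMMs of each mouse were left untreated (M0) or received 20 ng/ml IL-4 for 8 h (M2), which gave 12 libraries, 3 in each of the groups WT M0, KO M0, WT M2 and KO M2.

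The TCA cycle oxidizes acetyl groups in the mitochondrial matrix and hands the electrons to the respiratory chain. Pyruvate enters through the mitochondrial pyruvate carrier and the pyruvate dehydrogenase complex, which is switched off by kinases (Pdk) and on by phosphatases (Pdp), and other carbon enters through pyruvate carboxylase, glutamate dehydrogenase and the transaminases. In macrophages the cycle is known for a branch at aconitate, from which Acod1 makes itaconate, an antimicrobial metabolite that inhibits succinate dehydrogenase. Macrophages stimulated with LPS are known to produce itaconate in large amounts, whereas those stimulated with IL-4 are known to keep an intact cycle coupled to oxidative phosphorylation.

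Totals per library lay between 20011792 and 39632770 counts, and the 38 genes took 0.419% to 0.465% of them. The lowest count of any of the 38 genes in any library was 79, for Pdk2, and 28 of them had over 1000 counts in every library. Igf2bp2 itself, counted over the whole gene and not over exons 4 and 5, stood at 76.5 to 118 CPM (library counts scaled to a common size by the TMM method) in untreated WT and 84.9 to 95.9 in untreated KO libraries, which overlapped. With IL-4 it stood at 178 to 233 CPM in WT and 129 to 146 in KO. Lyz2, the locus that carries Cre, stood at 7030 to 10544 CPM in untreated WT and 22.1 to 33.2 in untreated KO libraries. The macrophage markers Csf1r, Adgre1, Cd68, Itgam, Fcgr1 and Mertk summed in M0 to 4327 to 4716 CPM (WT) and 4720 to 4822 (KO), and in M2 to 5254 to 5625 (WT) and 5265 to 5473 (KO). Among them Itgam stood at 900 to 947 CPM in untreated WT and 1193 to 1312 in untreated KO libraries, and Adgre1 with IL-4 at 1316 to 1528 in WT and 1114 to 1204 in KO. Markers of lymphoid, erythroid and mast cells summed to under 0.2 CPM in every library. The dendritic cell markers summed to 0.194 to 0.478 CPM in M0 and 1.53 to 2.11 in M2, most of it Zbtb46. The 7 neutrophil markers, of which Ly6g was at 0 in all libraries, summed in M0 to 6.66 to 17.0 CPM (WT) and 4.34 to 4.74 (KO), and in M2 to 4.35 to 11.0 (WT) and 4.14 to 5.33 (KO), where they overlapped. The stromal markers summed in M0 to 26.9 to 48.2 CPM (WT) and 7.47 to 26.6 (KO), and in M2 to 29.3 to 53.2 (WT) and 8.45 to 23.4 (KO). The part of these lists in the differences with IL-4 and between the genotypes was not tested. Among the WT libraries, both of mouse 3 differed most from the others of their group, and the calls between the genotypes are given with and without them. KO M2 replicate 1 stood about as far from its group, with a chi-square per gene of 19.5 and 14.7 against the other KO M2 libraries, which differed by 4.9 from each other, where WT M2 replicate 3 gave 20.7 and 17 beside 5.74. Without KO M2 replicate 1 the increase with IL-4 in KO was 0.17 for Sdhb (adjusted p = 0.0153) and 0.13 for Idh3b (adjusted p = 0.0123), beside 0.23 and 0.17 with it.

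As levels per transcript length, in TPM (transcript share scaled for length and library size), the 38 genes spanned a wide range. The lowest means over the 12 libraries were those of the kinase Pdk2 (3.95 TPM), pyruvate carboxylase Pcx (3.98), Pdk3 (14.3) and the phosphatase Pdp1 (14.9). The highest were those of Sdhc, a membrane subunit of succinate dehydrogenase (356 TPM), of mitochondrial malate dehydrogenase Mdh2 (339) and of glutamate dehydrogenase Glud1 (334). Pdk2 and Pcx did not differ beyond their spread, since Pdk2 ranged from 3.19 to 4.45 TPM and Pcx from 2.80 to 5.07 over the libraries. Neither did Mdh2 (305 to 372 TPM) and Sdhc (327 to 374). In all, 30 of the 38 genes had a mean over 50 TPM.

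The summed TPM of the 20 cycle enzymes moved little between the groups. In WT it was 2812 ± 62.4 (SD, n = 3) untreated and 2912 ± 50.7 with IL-4, and in KO 2856 ± 39.6 and 2929 ± 9.95. The 9 genes of pyruvate entry summed to 482.9 ± 12.8 and 491.5 ± 16.3 TPM in WT and to 516.7 ± 1.62 and 507.8 ± 9.09 in KO. The sum of the 6 genes of anaplerosis and exchange was lower in M2, going from 627.7 ± 26.2 to 527.3 ± 5.74 TPM in WT and from 668.5 ± 5.55 to 548.2 ± 17.8 in KO. Citrate export went from 170 ± 9.26 to 169.7 ± 3.09 TPM in WT and from 182.5 ± 7.3 to 168.8 ± 3.19 in KO. Acod1, the single itaconate gene of the list, went from 114.6 ± 54.9 to 17.29 ± 1.29 TPM in WT and from 115.3 ± 26.6 to 43.93 ± 16.2 in KO.

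The response to IL-4 was examined first, in WT and in KO BMMs. In WT, IL-4 raised 13 and lowered 7 of the 38 genes, and in KO it raised 13 and lowered 8 (edgeR quasi-likelihood test, adjusted p under 0.05). These counts stood near the background, since 50.0% of all 12846 genes tested were called in WT (24.9% higher and 25.1% lower) and 52.8% in KO (26.8% higher and 26.0% lower). The median log2 fold change of the 38 genes was 0.09 in WT and 0.08 in KO, beside -0.01 and 0.01 for all genes. On the scale of log2(TPM + 1), fitted with limma, the split was 8 higher and 8 lower in WT and 7 higher and 9 lower in KO. Of all 12846 genes, 2277 were called higher and 3432 lower in WT on that scale, and 2290 higher and 3555 lower in KO. The median there was 0.02 for the 38 genes in WT and -0.01 in KO, beside -0.05 and -0.06 for all genes. On that scale the calls of Acly, Dld, Idh3b, Pdk3 and Sucla2 in WT and of Fh1, Idh3b, Idh3g, Pdha1, Pdhb and Pdk3 in KO were lost, and Mpc1 in WT and Idh2 in KO were called lower. By edgeR without the filter on low counts, Acly, Dld, Pdk3 and Sucla2 in WT were not called (adjusted p = 0.0737 to 0.138). Idh3g (0.104), Pdha1 (0.0706) and Pdhb (0.0516) in KO were not called in that fit either. On the 6 libraries of a comparison alone, the same WT calls (0.0731 to 0.111) and that of Idh3g in KO (0.0597) were lost. With the mouse as a replicate block, 23 of the 38 genes were called in WT and 25 in KO, beside 7016 and 7472 of all 12846 genes. Of the 20 genes called in WT, 15 (75%) were also called in KO, which is 71.4% of the KO calls, and all 15 moved in the same direction. Over all genes these shares were 80.1% and 75.9%.

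**Figure D1:**
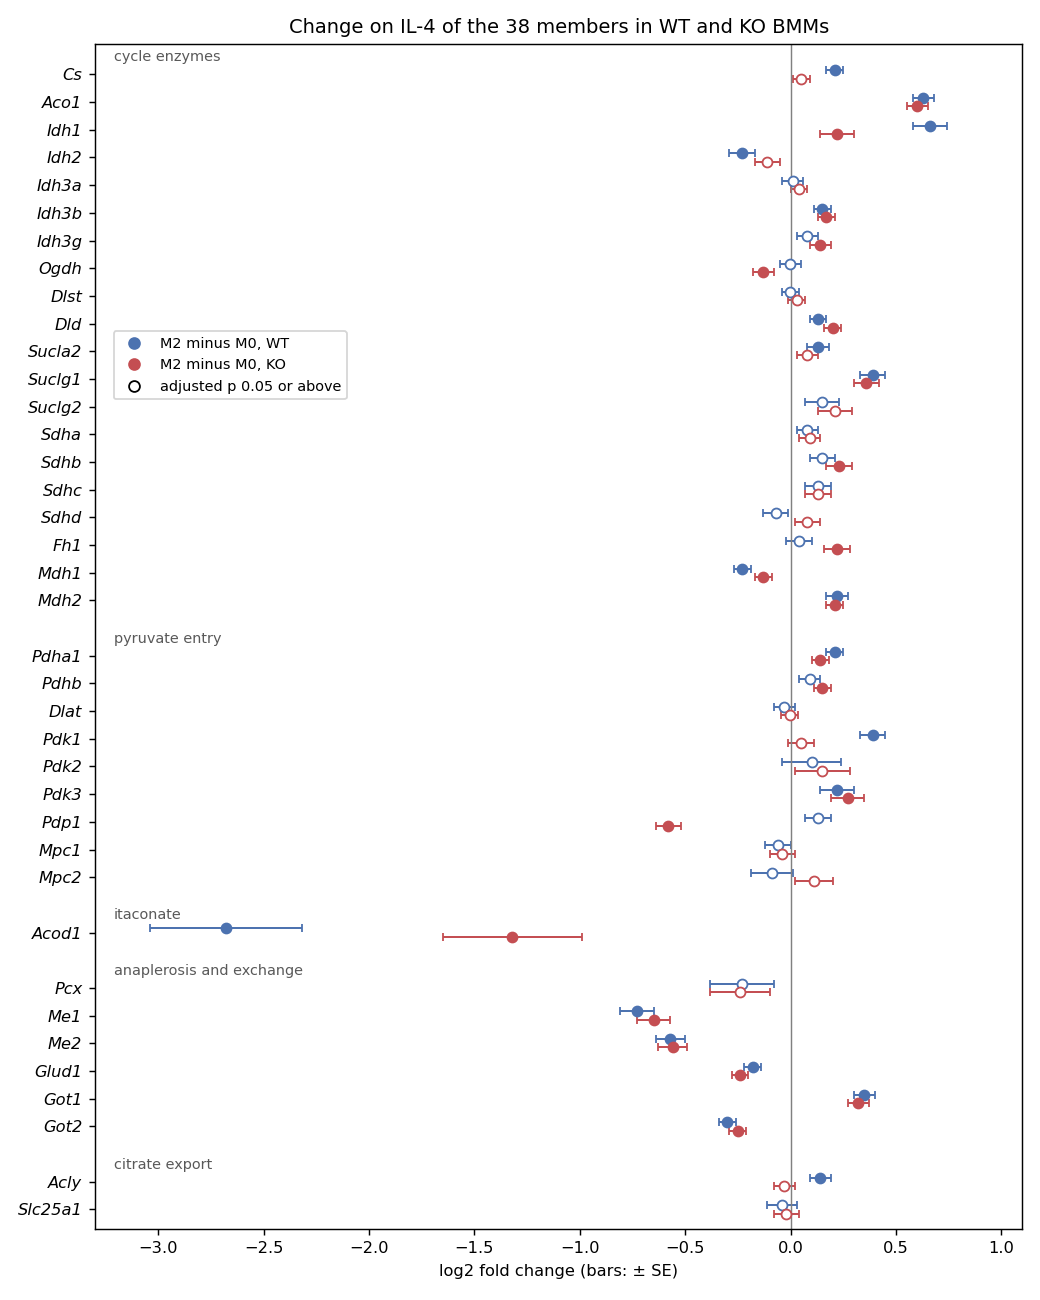
Log2 fold change from M0 to M2 of each of the 38 genes (rows, grouped by role) in WT (blue) and KO (red) BMMs, with bars for the SE. Filled points passed an adjusted p of 0.05. Acod1 lies far to the left in both genotypes at -2.68 and -1.32, Me1 and Me2 follow at -0.73 to -0.56, and the points of Pdp1 are far apart, at 0.13 in WT and -0.58 in KO.

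Acod1, which makes itaconate from cis-aconitate, fell most. It stood at 89.2, 146 and 255 CPM in WT M0 and at 23.7, 27.6 and 25 in WT M2, so that the 3 untreated libraries were far apart and the 3 treated ones close together. In KO the values were 128, 204 and 157 CPM in M0 and 43.5, 88.1 and 64.3 in M2. Every M2 library was below every M0 library of its genotype. The log2 fold change was -2.68 ± 0.36 (SE) in WT, a 6.42-fold decrease (adjusted p = 4.22e-05), and -1.32 ± 0.33 in KO, a 2.49-fold decrease (adjusted p = 0.00419). By mouse, the log2 change was -1.91, -2.40 and -3.35 in WT and -1.56, -1.21 and -1.29 in KO. The difference between the responses was 1.37 ± 0.47 with an adjusted p of 0.15, and 1.22 with an adjusted p of 0.0269 when the mouse was a block. It was not called in 11 of the 12 fits without 1 library or by DESeq2, RLE size factors, limma or the fit without the filter. The difference was 1.66 (adjusted p = 0.0322) without WT M0 replicate 1, the untreated WT library with the lowest Acod1, 0.89 (adjusted p = 0.255) without WT M0 replicate 3, the one with the highest, and 0.88 (adjusted p = 0.305) without both libraries of WT mouse 3. In these bulk samples fewer cells that express a gene and less RNA per cell cannot be told apart.

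The malic enzymes, which turn malate into pyruvate with the release of NADPH or NADH, fell together. Cytosolic Me1 went from 51.0, 57.4 and 60.7 CPM in WT M0 to 30.0, 36.1 and 36.2 in WT M2, and from 58.9, 58.9 and 60.5 in KO M0 to 35.4, 38.9 and 39.2 in KO M2. Mitochondrial Me2 went from 62.5, 68.9 and 73.2 CPM to 42.8, 45.2 and 49.6 in WT, and from 73.7, 72.8 and 75.6 to 46.7, 50.8 and 53.1 in KO. For both genes all M2 libraries lay under all M0 libraries. Me1 fell 1.65-fold in WT (log2 -0.73 ± 0.08, adjusted p = 9.34e-06) and 1.57-fold in KO (-0.65 ± 0.08, adjusted p = 1.57e-05). Me2 fell 1.49-fold in WT (-0.57 ± 0.07, adjusted p = 2.57e-05) and 1.47-fold in KO (-0.56 ± 0.07, adjusted p = 2.2e-05). The KO response less the WT response was 0.08 ± 0.11 for Me1 (95% interval -0.17 to 0.32, adjusted p = 0.774) and 0.01 ± 0.10 for Me2 (-0.20 to 0.23, adjusted p = 0.959).

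Of the other genes of anaplerosis and exchange, Glud1, which converts glutamate to 2-oxoglutarate, decreased slightly. It stood at 433, 430 and 448 CPM in WT M0 and 378, 391 and 386 in WT M2, and at 477, 476 and 463 in KO M0 and 393, 405 and 402 in KO M2. The decrease was -0.18 ± 0.04 in WT (adjusted p = 0.00136) and -0.24 ± 0.04 in KO (adjusted p = 0.000154). The aspartate transaminases moved in opposite directions. Cytosolic Got1 rose from 57.2, 58.9 and 58.5 CPM to 76.1, 76.1 and 70.4 in WT and from 64.9, 62.9 and 66.0 to 83.3, 78.8 and 80.1 in KO. Mitochondrial Got2 fell from 186, 182 and 179 CPM to 145, 151 and 150 in WT and from 186, 181 and 181 to 153, 153 and 153 in KO. These groups did not overlap for either gene. The log2 fold change of Got1 was 0.35 ± 0.05 (adjusted p = 3.78e-05) and 0.32 ± 0.05 (adjusted p = 5.98e-05), and that of Got2 was -0.30 ± 0.04 (adjusted p = 2.72e-05) and -0.25 ± 0.04 (adjusted p = 8.15e-05), in WT and KO. A processed copy, Got2-ps1, exists, and its reads could be divided with Got2 in the authors' counting.

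Pcx, which carboxylates pyruvate to oxaloacetate, was among the lowest of the 38 genes. Its levels were 9.22, 9.33 and 10.4 CPM in WT M0, 6.54, 7.78 and 10.4 in WT M2, 9.44, 11.5 and 9.68 in KO M0 and 8.62, 9.37 and 8.05 in KO M2. WT M2 replicate 3 stood at the level of the untreated libraries. The log2 fold change was -0.23 ± 0.15 in WT (adjusted p = 0.211) and -0.24 ± 0.14 in KO (adjusted p = 0.173). Without WT M2 replicate 3 the value in WT was -0.43 with an adjusted p of 0.0145, without WT M2 replicate 1 it was -0.08 with an adjusted p of 0.66, and with the mouse as a block the value in KO was -0.24 with an adjusted p of 0.0489. The gene overlaps Lrfn4 on the opposite strand.

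Among the cycle enzymes, IL-4 raised 8 and lowered 2 of 20 in WT and raised 9 and lowered 2 in KO, beside 50.0% and 52.8% of all genes called. On the scale of log2(TPM + 1), 5 were called higher and 2 lower in WT and 6 higher and 3 lower in KO. Of all 12846 genes, 2277 were called higher and 3432 lower in WT on this scale, and 2290 and 3555 in KO. Aco1, the cytosolic aconitase that doubles as an iron-regulatory protein, rose from 65.3, 66.8 and 60.1 CPM to 99.1, 105 and 94.3 in WT and from 65.6, 66.4 and 64.7 to 96.3, 103 and 98.4 in KO. This was a 1.55-fold increase in WT (log2 0.63 ± 0.05, adjusted p = 7.71e-07) and a 1.51-fold increase in KO (0.60 ± 0.05, adjusted p = 9.86e-07). Suclg1, the subunit shared by both succinyl-CoA ligases, rose from 62, 62 and 71.1 CPM to 80.7, 83.9 and 91.7 in WT and from 65.8, 67.0 and 66.0 to 89.0, 84.3 and 81.8 in KO. Its log2 fold change was 0.39 ± 0.06 (adjusted p = 0.000227) and 0.36 ± 0.06 (adjusted p = 0.000371). In both genes the M2 libraries all exceeded the M0 libraries.

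Mdh2, the mitochondrial malate dehydrogenase that closes the cycle, increased from 205, 207 and 218 CPM to 237, 241 and 256 in WT and from 229, 225 and 225 to 272, 259 and 256 in KO. The log2 fold change was 0.22 ± 0.05 (adjusted p = 0.00116) and 0.21 ± 0.04 (adjusted p = 0.00132). Idh3b, a subunit of the NAD-dependent isocitrate dehydrogenase, increased from 125, 128 and 122 CPM to 140, 140 and 138 in WT and from 127, 127 and 126 to 148, 139 and 139 in KO (0.15 ± 0.04, adjusted p = 0.00639, and 0.17 ± 0.04, adjusted p = 0.00363). Idh3b overlaps Nop56 on the opposite strand, and on the scale of log2(TPM + 1) it was called in neither genotype. Cs, citrate synthase, rose in WT from 270, 279 and 274 CPM to 309, 318 and 323 (0.21 ± 0.04, adjusted p = 0.000429), while in KO it went from 313, 320 and 313 to 323, 329 and 326 (0.05 ± 0.04, adjusted p = 0.3). Idh2, the mitochondrial NADP-dependent enzyme, fell in WT from 115, 119 and 112 CPM to 94.1, 98.3 and 103 (-0.23 ± 0.06, adjusted p = 0.00814). In KO the Idh2 libraries overlapped, with 113, 99.5 and 101 CPM in M0 and 104, 92.9 and 93.7 in M2 (-0.11 ± 0.06, adjusted p = 0.139), and the adjusted p was 0.0446 with the mouse as a block and 0.0418 without KO M2 replicate 1. Without KO M0 replicate 1 the value of Idh2 in KO was -0.06 (adjusted p = 0.468). The differences between the responses of Cs (-0.16 ± 0.05, adjusted p = 0.12) and of Idh2 (0.11 ± 0.09, adjusted p = 0.54) did not pass the test, while DESeq2 called that of Cs (-0.17, adjusted p = 0.00676).

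Sdhb and Fh1 passed the test in KO and not in WT. IL-4 raised Sdhb, the iron-sulphur subunit of succinate dehydrogenase, in KO from 124, 122 and 126 CPM to 158, 139 and 140 (0.23 ± 0.06, adjusted p = 0.00452). The values in WT were 119, 120 and 128 CPM in M0 and 130, 133 and 143 in M2 (0.15 ± 0.06, adjusted p = 0.052). In WT the adjusted p of Sdhb was 0.0205 with the mouse as a block, 0.0437 by DESeq2, 0.0323 without WT M0 replicate 3 and 0.0461 without WT M2 replicate 1. In the other 4 of 6 fits without 1 library it was up to 0.183, and limma on log2(TPM + 1) gave 0.08 (adjusted p = 0.137). Fh1, fumarase, rose in KO from 64.2, 65.9 and 65.4 CPM to 78.8, 74.1 and 74.5 (0.22 ± 0.06, adjusted p = 0.00742), and it measured 67.6, 76.4 and 72.1 in WT M0 and 68.5, 78.4 and 75.9 in WT M2 (0.04 ± 0.06, adjusted p = 0.578). Fh1 overlaps Kmo on the opposite strand, and on the scale of log2(TPM + 1) its value in KO was 0.11 and not called (limma, adjusted p = 0.393). Neither difference between the genotypes was called, with 0.08 ± 0.08 for Sdhb (adjusted p = 0.647) and 0.17 ± 0.08 for Fh1 (adjusted p = 0.304).

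For 6 cycle enzymes a call of IL-4 lay near the threshold and was lost on leaving out any of several single libraries, with fold changes that mostly stayed close to the value from all libraries. Dld, the dihydrolipoyl dehydrogenase of the 2-oxo acid complexes, rose from 137, 138 and 138 CPM to 150, 159 and 144 in WT (0.13 ± 0.04, adjusted p = 0.0269) and from 128, 129 and 134 to 153, 147 and 150 in KO (0.20 ± 0.04, adjusted p = 0.00195). The WT call was lost without WT M0 replicate 1 (0.13, adjusted p = 0.0582), WT M0 replicate 2 (0.14, 0.0518), WT M2 replicate 1 (0.14, 0.0507) or WT M2 replicate 2 (0.09, 0.133). Idh1, the cytosolic NADP-dependent enzyme, rose in WT from 86.5, 84.6 and 105 CPM to 139, 140 and 157, which was a 1.58-fold increase that held throughout (0.66 ± 0.08, adjusted p = 2.15e-05). In KO it rose from 102, 116 and 114 CPM to 130, 127 and 130, a 1.16-fold increase (0.22 ± 0.08, adjusted p = 0.0343). This call was lost without KO M0 replicate 1 (0.16, adjusted p = 0.143), KO M0 replicate 3 (0.24, 0.0517), KO M2 replicate 1 (0.22, 0.0698), KO M2 replicate 2 (0.24, 0.0533) or KO M2 replicate 3 (0.21, 0.0798). With the mouse as a block the value of Idh1 in KO was 0.22 (adjusted p = 0.00368). Mdh1, the cytosolic malate dehydrogenase, fell in WT from 159, 163 and 159 CPM to 135, 139 and 136 (-0.23 ± 0.04, adjusted p = 0.000712) and in KO from 151, 150 and 156 to 148, 135 and 136 (-0.13 ± 0.04, adjusted p = 0.0243). Its KO call was lost without KO M0 replicate 3 (-0.11, adjusted p = 0.097), KO M2 replicate 2 (-0.10, 0.105) or KO M2 replicate 3 (-0.11, 0.0981).

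Idh3g, another subunit of the NAD-dependent isocitrate dehydrogenase, was called in KO, from 71.3, 73.1 and 78.4 CPM to 86.8, 79.0 and 80.4 (0.14 ± 0.05, adjusted p = 0.0407). It stood at 71.5, 73.6 and 76.4 CPM in WT M0 and 76.1, 76.9 and 81.7 in WT M2 (0.08 ± 0.05, adjusted p = 0.229). The KO call was lost without KO M0 replicate 1 (0.11, adjusted p = 0.159), KO M0 replicate 2 (0.13, 0.112), KO M2 replicate 1 (0.10, 0.141) or KO M2 replicate 3 (0.16, 0.0571). Ogdh, the first component of the 2-oxoglutarate dehydrogenase complex, fell in KO from 216, 208 and 203 CPM to 188, 198 and 186 (-0.13 ± 0.05, adjusted p = 0.0267) and measured 211, 209 and 195 in WT M0 and 203, 206 and 204 in WT M2. Its call was lost without KO M0 replicate 1 (-0.11, adjusted p = 0.0959), KO M0 replicate 2 (-0.14, 0.0609), KO M2 replicate 1 (-0.12, 0.0678) or KO M2 replicate 3 (-0.11, 0.101). Over all fits run, the value of Ogdh in KO lay between -0.24 and -0.11. Sucla2, the ATP-forming subunit of succinyl-CoA ligase, was called in WT at 0.13 ± 0.05 (adjusted p = 0.0462), over a range of 71.0 to 85.1 CPM in all libraries. It was lost without WT M0 replicate 1 (0.10, adjusted p = 0.148), WT M0 replicate 2 (0.12, 0.104), WT M2 replicate 1 (0.15, 0.0509), WT M2 replicate 2 (0.11, 0.151) or WT M2 replicate 3 (0.13, 0.0788).

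The remaining 6 cycle enzymes were called in neither genotype. They were Idh3a, Dlst, Suclg2, Sdha, Sdhc and Sdhd, with log2 fold changes between -0.07 (Sdhd in WT) and 0.21 (Suclg2 in KO). With the mouse as a block Suclg2 was called in WT (0.15, adjusted p = 0.0286) and KO (0.21, adjusted p = 0.00415), and Sdhc in WT (0.14, adjusted p = 0.0258) and KO (0.12, adjusted p = 0.0353). Without WT M2 replicate 3 the value of Suclg2 in WT was 0.22 (adjusted p = 0.0429), and without KO M2 replicate 2 that of Sdhc in KO was 0.18 (adjusted p = 0.0269). By limma on log2(TPM + 1), Suclg2 stood at 0.08 in WT (adjusted p = 0.548) and 0.12 in KO (adjusted p = 0.384). On the same scale Sdhc stood at 0.01 in WT (adjusted p = 0.902) and 0.04 in KO (adjusted p = 0.598).

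Among the 9 genes of pyruvate entry, IL-4 raised 3 in WT and raised 3 and lowered 1 in KO, beside 50.0% and 52.8% of all genes called. Pdha1, the catalytic subunit of pyruvate dehydrogenase that the kinases phosphorylate, rose from 126, 132 and 127 CPM to 150, 151 and 146 in WT (0.21 ± 0.04, adjusted p = 0.00134) and from 133, 140 and 141 to 146, 156 and 155 in KO (0.14 ± 0.04, adjusted p = 0.0156). The KO call was lost without KO M0 replicate 1 (0.11, adjusted p = 0.0929), KO M2 replicate 2 (0.13, 0.0556) or KO M2 replicate 3 (0.13, 0.0582), and Pdha1 overlaps Map3k15 on the opposite strand. Pdhb, its partner subunit, rose in KO from 84.1, 83.7 and 84.6 CPM to 98.4, 88.4 and 93.9 (0.15 ± 0.04, adjusted p = 0.0111), and stood at 79.9, 80.3 and 82.6 in WT M0 and 86.0, 86.9 and 84.9 in WT M2 (0.09 ± 0.05, adjusted p = 0.133). The KO call of Pdhb was lost on the scale of log2(TPM + 1) (limma, 0.07, adjusted p = 0.135) and without the filter on low counts (0.14, adjusted p = 0.0516).

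Of the inhibitory kinases and the activating phosphatase of the complex, Pdk3 was called with IL-4 in both genotypes, Pdk1 in WT and Pdp1 in KO. Pdk1, which was the most abundant kinase, rose in WT from 76.5, 79.1 and 75.8 CPM to 90.0, 110 and 103 (0.39 ± 0.06, adjusted p = 0.000236). In KO it measured 90.7, 89.1 and 88.4 CPM in M0 and 90.2, 96.1 and 90.9 in M2 (0.05 ± 0.06, adjusted p = 0.556). Pdk3 rose in WT from 13.7, 14.6 and 15.8 CPM to 15.6, 16.9 and 18.8 (0.22 ± 0.08, adjusted p = 0.0358) and in KO from 14.3, 14.0 and 14.8 to 18.3, 16.9 and 16.8 (0.27 ± 0.08, adjusted p = 0.00992). The Pdk3 libraries overlapped in WT, and that call was lost without WT M0 replicate 1 (0.17, adjusted p = 0.119), WT M0 replicate 2 (0.22, 0.0785), WT M2 replicate 2 (0.23, 0.0666) or WT M2 replicate 3 (0.15, 0.152). Pdp1, the catalytic subunit of pyruvate dehydrogenase phosphatase, measured 19.9, 19.3 and 20.3 CPM in WT M0 and 21.4, 22.4 and 21.5 in WT M2 (0.13 ± 0.06, adjusted p = 0.102). In KO it fell from 29.2, 26.6 and 28.1 CPM to 20.3, 17.8 and 18.0, a 1.5-fold decrease (-0.58 ± 0.06, adjusted p = 4.95e-06). Dlat, Pdk2 and the carrier subunits Mpc1 and Mpc2 were called in neither genotype by edgeR, with values between -0.09 (Mpc2 in WT) and 0.15 (Pdk2 in KO), while limma on log2(TPM + 1) called Mpc1 lower in WT (-0.21, adjusted p = 0.00505, beside -0.06 by edgeR).

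Of the citrate export genes, Acly, the ATP citrate lyase that makes cytosolic acetyl-CoA, was called in WT, from 225, 214 and 196 CPM to 238, 235 and 225 (0.14 ± 0.05, adjusted p = 0.0435), and went from 236, 231 and 227 to 222, 232 and 226 in KO (-0.03 ± 0.05, adjusted p = 0.666). The WT groups overlapped, and the call was lost without WT M0 replicate 2 (0.15, adjusted p = 0.0731), WT M0 replicate 3 (0.08, 0.158), WT M2 replicate 1 (0.12, 0.122) or WT M2 replicate 2 (0.13, 0.112), and by limma on log2(TPM + 1) (0.06, 0.427). Slc25a1, the citrate carrier, was called in neither genotype (-0.04 ± 0.07 and -0.02 ± 0.06).

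**Figure D2:**
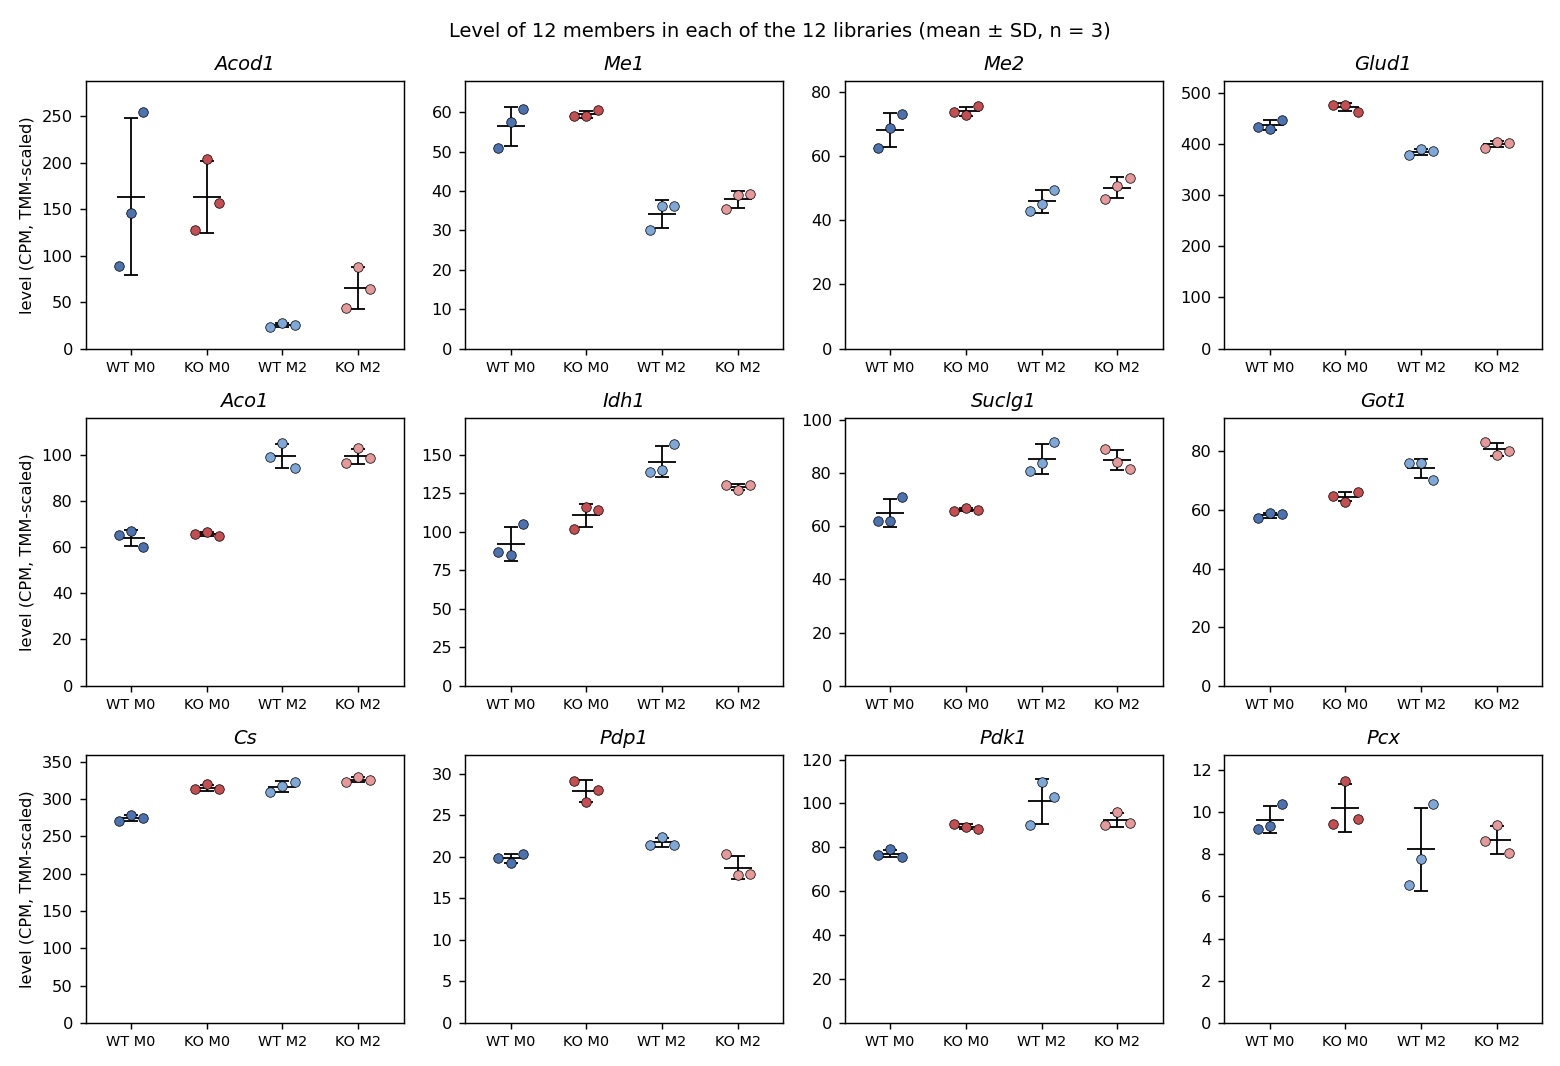
Level in CPM, scaled by the TMM method, of 12 of the genes in each library (points), with the mean and SD of the 3 libraries per group (bars). Acod1, Me1, Me2 and Glud1 are lower in M2 and Aco1, Idh1, Suclg1 and Got1 higher in both genotypes, whereas Pdp1 is highest in KO M0 at 26.6 to 29.2 CPM and Cs is lowest in WT M0 at 270 to 279 CPM.

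Promoters are shown for Acod1, Me1 and Aco1, which changed with IL-4 in both genotypes, and for Cs, which differed between the genotypes in M0. The RefSeq tables on GRCm38.p6 held 45 promoters of 34 of the 38 genes, each running from 250 bases before the annotated start to 50 after it. Searched on both strands were the spacing bound by STAT6, the transcription factor activated by IL-4 (TTCNNNNGAA), the core of the antioxidant response element (TGACNNNGC), which can overlap an AP-1 site, and the core of the hypoxia response element (ACGTG), which also lies in the E-box CACGTG. The first was in 2 of the 45 promoters (of Fh1 and Idh3b), beside 6.95% of all 32851 promoters. The second was in 7 of the 45 (of Dlst, Idh3g, Mdh1, Me1, Mpc1, Pdhb and Sucla2), beside 12.4% of all, and the third in 17 of the 45, which belong to 12 genes, beside 19.6% of all. Capitals mark the matches in the sequences, which are printed in the direction of transcription. Acod1 (chr14:103046762-103047061, plus strand) held 1 hypoxia core, which began 18 bases before the start, and Me1 (chr9:86695865-86696164, minus strand) held 1 antioxidant core, which began 6 bases before the start and ran across it. Aco1 (chr4:40143015-40143314, plus strand) and Cs (chr10:128337477-128337776, plus strand) held none of the letters searched.
Acod1: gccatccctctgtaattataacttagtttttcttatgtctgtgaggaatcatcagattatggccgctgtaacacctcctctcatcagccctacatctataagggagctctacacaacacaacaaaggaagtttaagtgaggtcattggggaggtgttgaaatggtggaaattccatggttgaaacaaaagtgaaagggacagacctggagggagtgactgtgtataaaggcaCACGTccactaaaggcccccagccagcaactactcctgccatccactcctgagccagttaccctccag
Me1: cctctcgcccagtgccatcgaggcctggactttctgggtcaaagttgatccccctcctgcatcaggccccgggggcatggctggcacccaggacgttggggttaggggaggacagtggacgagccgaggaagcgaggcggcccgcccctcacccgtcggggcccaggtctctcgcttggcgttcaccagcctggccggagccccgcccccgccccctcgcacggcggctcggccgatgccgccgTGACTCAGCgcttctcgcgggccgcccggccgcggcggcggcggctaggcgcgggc
Aco1: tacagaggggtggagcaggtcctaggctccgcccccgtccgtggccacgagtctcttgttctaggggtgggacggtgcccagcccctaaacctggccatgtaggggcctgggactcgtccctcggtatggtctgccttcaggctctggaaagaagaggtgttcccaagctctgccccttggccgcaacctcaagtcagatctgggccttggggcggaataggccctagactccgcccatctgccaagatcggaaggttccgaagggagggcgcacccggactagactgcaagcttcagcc
Cs: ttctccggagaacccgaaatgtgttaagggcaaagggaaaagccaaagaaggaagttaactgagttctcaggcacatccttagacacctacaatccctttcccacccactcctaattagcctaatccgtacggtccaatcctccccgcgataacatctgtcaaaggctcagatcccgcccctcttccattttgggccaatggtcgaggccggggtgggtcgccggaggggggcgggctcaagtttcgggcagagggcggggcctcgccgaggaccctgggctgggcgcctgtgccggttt
A second annotated start of Me1 held 1 hypoxia core, 98 bases before it. These matches are letters in a window and describe no binding.

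KO and WT BMMs in M0 were compared next. Since the KO libraries also lacked most Lyz2 transcripts, in M0 (given above) and in M2 (11.0 to 14.7 CPM beside 4185 to 5293 in WT), the deletion in Igf2bp2 and the altered Lyz2 locus cannot be told apart in this comparison or the others between the genotypes. Cs and Pdp1 were higher in KO M0 than in WT M0, and none of the 38 genes was called lower (edgeR, adjusted p under 0.05). Beside these 2 of 38 genes, 9.78% of all genes were called. Citrate synthase Cs, at chr10:128337734-128362479 on GRCm38, stood at 270, 279 and 274 CPM in WT and 313, 320 and 313 in KO, and the groups did not overlap. This was a 1.15-fold difference (log2 0.20 ± 0.04, adjusted p = 0.00548). The phosphatase Pdp1, at chr4:11958184-11966452, stood at 19.9, 19.3 and 20.3 CPM in WT and 29.2, 26.6 and 28.1 in KO, without overlap. This was a 1.41-fold difference (log2 0.49 ± 0.06, adjusted p = 0.000693). Both calls held under all alternatives and without any single library, with adjusted p-values of 8.08e-09 to 0.0319 for Cs and 2.4e-08 to 0.00592 for Pdp1. A small RNA gene, Gm23182, lies within Cs on the same strand.

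At an unadjusted p under 0.05, 11 of the 38 genes passed in M0, of which 9 were higher and 2 lower in KO, beside 25.3% of all genes. In 14 of the 38 genes (36.8%) the 3 KO libraries lay apart from the 3 WT libraries, 11 of them above and 3 below, beside 31.1% of all genes. Those above were Cs, Dlst, Mdh2, Pdha1, Pdhb, Pdk1, Pdp1, Acly, Slc25a1, Glud1 and Got1, and those below were Dld, Fh1 and Mdh1. The log2 difference was above 0 in 29 of the 38 genes, with a median of 0.04, beside -0.00066 for all genes. In 36 of the 38 it was smaller than 0.25 in size.

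The genes nearest to the threshold in M0 were Pdk1, Idh1 and Got1. Pdk1 stood at 76.5, 79.1 and 75.8 CPM in WT and 90.7, 89.1 and 88.4 in KO (0.21 ± 0.06, adjusted p = 0.0526), Idh1 at 86.5, 84.6 and 105 in WT and 102, 116 and 114 in KO (0.27 ± 0.08, adjusted p = 0.0537), and Got1 at 57.2, 58.9 and 58.5 in WT and 64.9, 62.9 and 66.0 in KO (0.15 ± 0.05, adjusted p = 0.0557). WT M0 replicate 3 was the library in which Idh1 overlapped with KO. Without this library Idh1 differed by 0.38 (adjusted p = 0.00424) and Glud1 by 0.13 (adjusted p = 0.0493), and without KO M0 replicate 1 Idh1 differed by 0.33 (adjusted p = 0.0467). In the other 4 of 6 fits without 1 library Idh1 was not called (adjusted p up to 0.184), and Pdk1 was called in none of the 6. With RLE size factors (adjusted p = 0.0476 for Pdk1 and 0.0481 for Idh1) and without the filter on low counts (0.0401 and 0.0262) both were called, Pdk1 was also called on the 6 M0 libraries alone (0.0283, beside 0.111 for Idh1), and limma called neither (0.115 and 0.139). DESeq2 called Pdk1 (adjusted p = 0.0175), Glud1 (0.00527), Got1 (0.0284) and Idh1 (0.0153) beside Cs and Pdp1, and 1560 of all 12846 genes. Without both libraries of WT mouse 3, 6 of the genes were called, namely Cs, Pdp1, Idh1 (0.38, adjusted p = 0.0016), Glud1 (0.13, adjusted p = 0.0468), Mdh2 (0.14, adjusted p = 0.0498) and, lower in KO, Suclg2 (-0.20, adjusted p = 0.0313). In that fit 1733 of all 13012 genes tested were called.

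**Figure D3:**
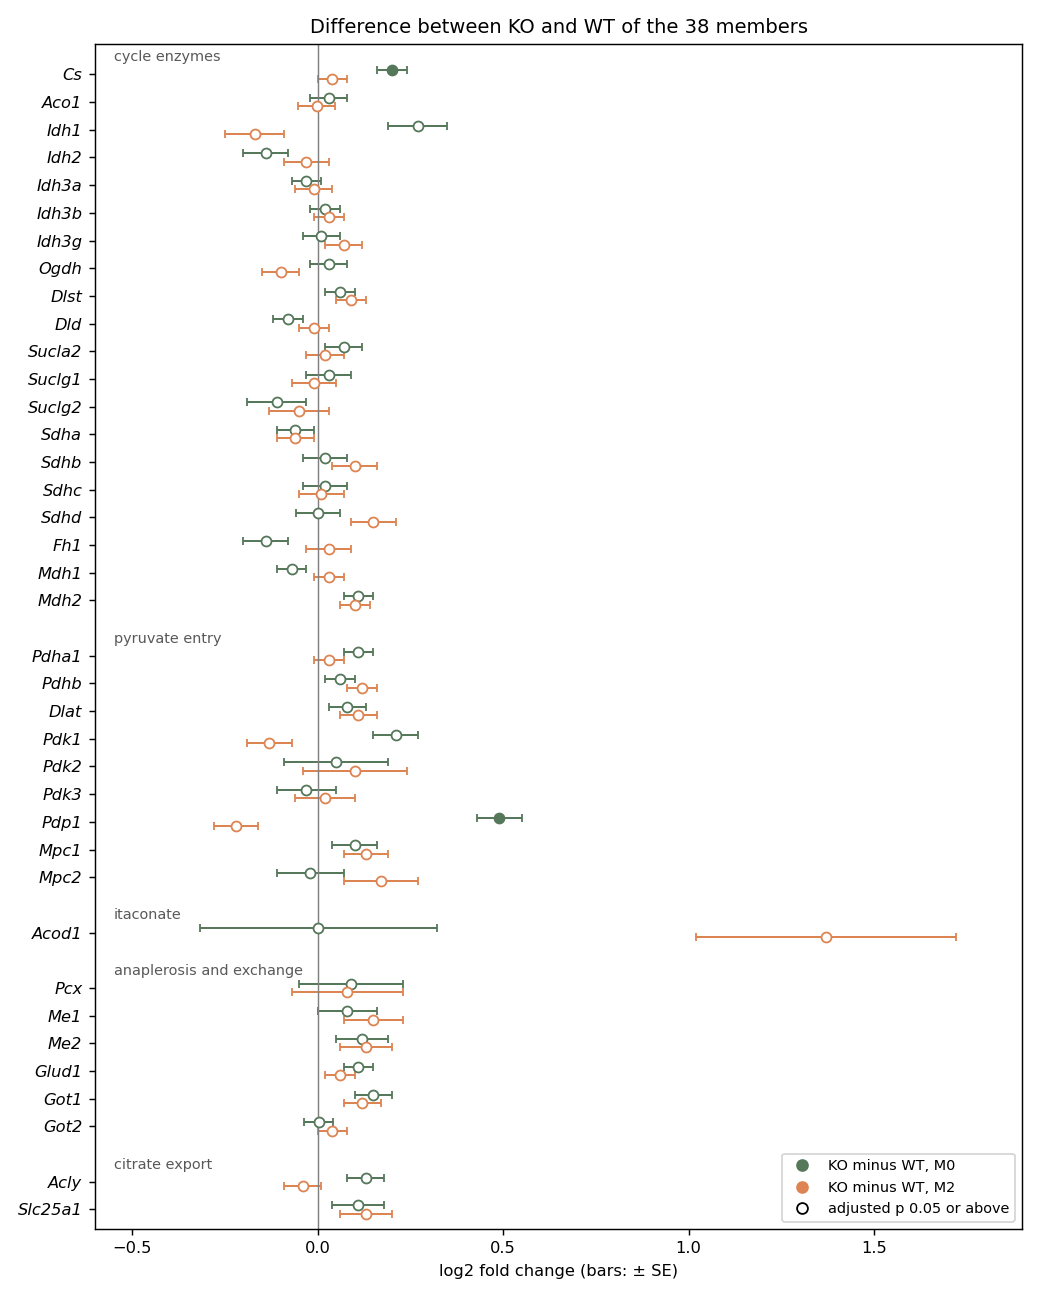
Log2 difference between KO and WT of each of the 38 genes (rows, grouped by role) in M0 (green) and M2 (orange), with bars for the SE. Filled points, which passed an adjusted p of 0.05, are Cs at 0.20 and Pdp1 at 0.49 in M0. Acod1 in M2 lies farthest from 0, at 1.37 with an SE of 0.35.

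In M2, none of the 38 genes was called between the genotypes by edgeR, beside 2.68% of all genes. At an unadjusted p under 0.05, 9 passed, 7 higher and 2 lower in KO, beside 20.3% of all genes. DESeq2 called Acod1 and limma on log2(TPM + 1) called none, and without both libraries of WT mouse 3 Acod1 and Mpc1 (0.20, adjusted p = 0.0409) were called. Over all genes these fits called 713, 70 and 1098. In 12 of the 38 genes (31.6%) the libraries did not overlap, beside 24.8% of all genes. The KO libraries were above in Cs, Dlst, Mdh2, Pdhb, Dlat, Acod1, Glud1, Got1 and Got2 and below in Idh1, Ogdh and Pdp1. The median log2 difference was 0.04, beside -0.00093 for all genes, and Acod1 was the gene whose value exceeded 0.25 in size.

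Acod1, at chr14:103046977-103056573, measured 23.7, 27.6 and 25 CPM in WT M2 and 43.5, 88.1 and 64.3 in KO M2. Every KO library lay above every WT library, and the KO libraries were spread widely. The log2 difference was 1.37 ± 0.35, or 2.58-fold, with a 95% interval of 0.60 to 2.13 and an adjusted p of 0.0609. It was called by DESeq2 (adjusted p = 0.0161), without the filter on low counts (0.0113), with only the 6 libraries of the comparison (0.0311), without KO M2 replicate 1 (1.59, adjusted p = 0.0469) and without both libraries of WT mouse 3 (0.0263). It was not called with RLE size factors (0.0601), by limma on log2(TPM + 1) (1.23, adjusted p = 0.0932) or in the other 5 of 6 fits without 1 library, where the value was as low as 1.09 (without KO M2 replicate 2, adjusted p = 0.167) and the adjusted p as high as 0.174. In M0 the log2 difference of Acod1 was 0.0019 ± 0.32, with a 95% interval of -0.69 to 0.69, and the libraries overlapped.

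Pdp1 was the gene of the 38 that lay above WT in M0 and below WT in M2 in all libraries. In M2 it measured 21.4, 22.4 and 21.5 CPM in WT and 20.3, 17.8 and 18.0 in KO (-0.22 ± 0.06, adjusted p = 0.0881). Without KO M2 replicate 1 the difference was -0.28 with an adjusted p of 0.037. Idh1 and Pdk1, which lay near the threshold in M0, had the opposite sign in M2, with -0.17 ± 0.08 (adjusted p = 0.256) and -0.13 ± 0.06 (adjusted p = 0.277) in M2.

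Whether the genotypes differed in their response to IL-4 was tested directly. Pdp1 was called among the 38 genes, beside 3.24% of all genes, and 6 passed at an unadjusted p under 0.05, beside 17.8% of all genes. By mouse, the log2 change of Pdp1 with IL-4 was 0.11, 0.22 and 0.08 in WT and -0.52, -0.58 and -0.64 in KO, so that it was positive in 3 of 3 WT mice and negative in 3 of 3 KO mice. Sdhd was the other of the 38 genes whose sign was opposite in all mice (-0.05, -0.08 and -0.07 in WT and 0.13, 0.03 and 0.08 in KO), beside 3.32% of all genes, and its difference was not called (adjusted p = 0.433). For Pdp1 the difference was -0.72 ± 0.09 (adjusted p = 0.00294), with a 95% interval of -0.91 to -0.52. It was called under all alternatives run and without any single library, with adjusted p-values of 6.91e-08 to 0.0141.

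The response of Idh1 by mouse was 0.69, 0.73 and 0.58 in WT and 0.35, 0.13 and 0.19 in KO. The difference was -0.44 ± 0.11 (adjusted p = 0.0576), and it was called with the mouse as a block (-0.44, adjusted p = 0.00749), without WT M0 replicate 3 (-0.55, adjusted p = 0.0065) and without both libraries of WT mouse 3 (-0.49, adjusted p = 0.00871). DESeq2 (-0.45, adjusted p = 0.00676) and the fit without the filter on low counts (-0.44, adjusted p = 0.026) also called it. It was not called in the other 11 of 12 fits without 1 library (adjusted p up to 0.14), with RLE size factors or by limma (-0.30, adjusted p = 0.221). The response of Pdk1 was 0.23, 0.48 and 0.44 in WT and -0.01, 0.11 and 0.04 in KO. Its difference was -0.34 ± 0.09 (adjusted p = 0.0599), and it was called with the mouse as a block (-0.34, adjusted p = 0.0257), by DESeq2 (-0.35, adjusted p = 0.01), without the filter (-0.34, adjusted p = 0.0472) and without WT M2 replicate 1 (-0.42, adjusted p = 0.0123). It was not called in the other 11 of 12 fits without 1 library (adjusted p up to 0.142), with RLE size factors, without both libraries of WT mouse 3 (-0.32) or by limma (-0.37, adjusted p = 0.154). The responses of the WT and KO mice did not overlap in 11 of the 38 genes, Idh1 and Pdk1 included, beside 30.6% of all genes. With the mouse as a block, 4 of the 38 genes were called, namely Pdp1, Idh1, Pdk1 and Acod1, and the number of all genes called rose from 416 to 1003. Comparisons of the genotypes with IL-4 and of the treatments share libraries, so their values are not independent. For Aco1, Suclg1, Mdh2, Got1, Got2, Me1 and Me2 the difference between the responses lay between -0.04 and 0.08, with adjusted p-values of 0.731 to 0.967.

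Where a reaction is carried by related enzymes in the cytosol and the mitochondria, the share of the cytosolic form in the summed TPM was compared. With 3 libraries per group the exact two-sided permutation test cannot give a p below 0.1, and this p was reached in 16 of the 32 comparisons of 8 shares, with an adjusted p of 0.2 for each. Idh1 made up 40% ± 2.37 (SD, n = 3) of Idh1 and Idh2 in WT M0 and 53.9% ± 1.87 in WT M2, and 46.2% ± 4.31 in KO M0 and 53.6% ± 0.834 in KO M2. Got1 made up 29.3% ± 0.959 of Got1 and Got2 in WT M0 and 39.2% ± 0.863 in WT M2, and 31.4% ± 0.609 and 40% ± 0.952 in KO. Mdh1 went the other way, from 36.8% ± 1.23 of Mdh1 and Mdh2 to 30.6% ± 0.421 in WT and from 34.3% ± 0.252 to 29.7% ± 0.493 in KO. For these 3 families the M0 and M2 libraries of a genotype did not overlap (exact permutation p = 0.1 each).

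Me1 made up 38.2% ± 0.248 of the malic enzymes Me1 and Me2 in WT M0, 35.7% ± 1.54 in WT M2, 37.5% ± 0.163 in KO M0 and 36% ± 0.439 in KO M2, so its share was lower in all M2 libraries of a genotype, by 2.49 percentage points in WT and 1.47 in KO (exact permutation p = 0.1 each). Pdk1 made up 74.8% to 81.4% of the kinases Pdk1, Pdk2 and Pdk3 over all libraries. In KO its share went from 79.7% ± 1.57 in M0 to 76.8% ± 1.18 in M2, and that of Pdk3 from 15.6% ± 1.07 to 18.3% ± 1.64, without overlap (exact permutation p = 0.1). Sucla2 made up 62.3% to 68.6% of Sucla2 and Suclg2, the ATP-forming and GTP-forming subunits, and in KO its share went from 67.1% in M0 to 64.9% in M2 without overlap (exact permutation p = 0.1). Between the genotypes in M0 the share of Mdh1 was lower in all KO libraries, by 2.49 percentage points, and that of Got1 higher, by 2.11 percentage points (exact permutation p = 0.1 each). The share of Pdk3 (18.1% in WT M0 against 15.6% in KO M0) and that of Me1 were also lower in all KO libraries (exact permutation p = 0.1 each). In M2 the share of Mdh1 was lower in all KO libraries too, at 29.7% beside 30.6% in WT (exact permutation p = 0.1).

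**Figure D4:**
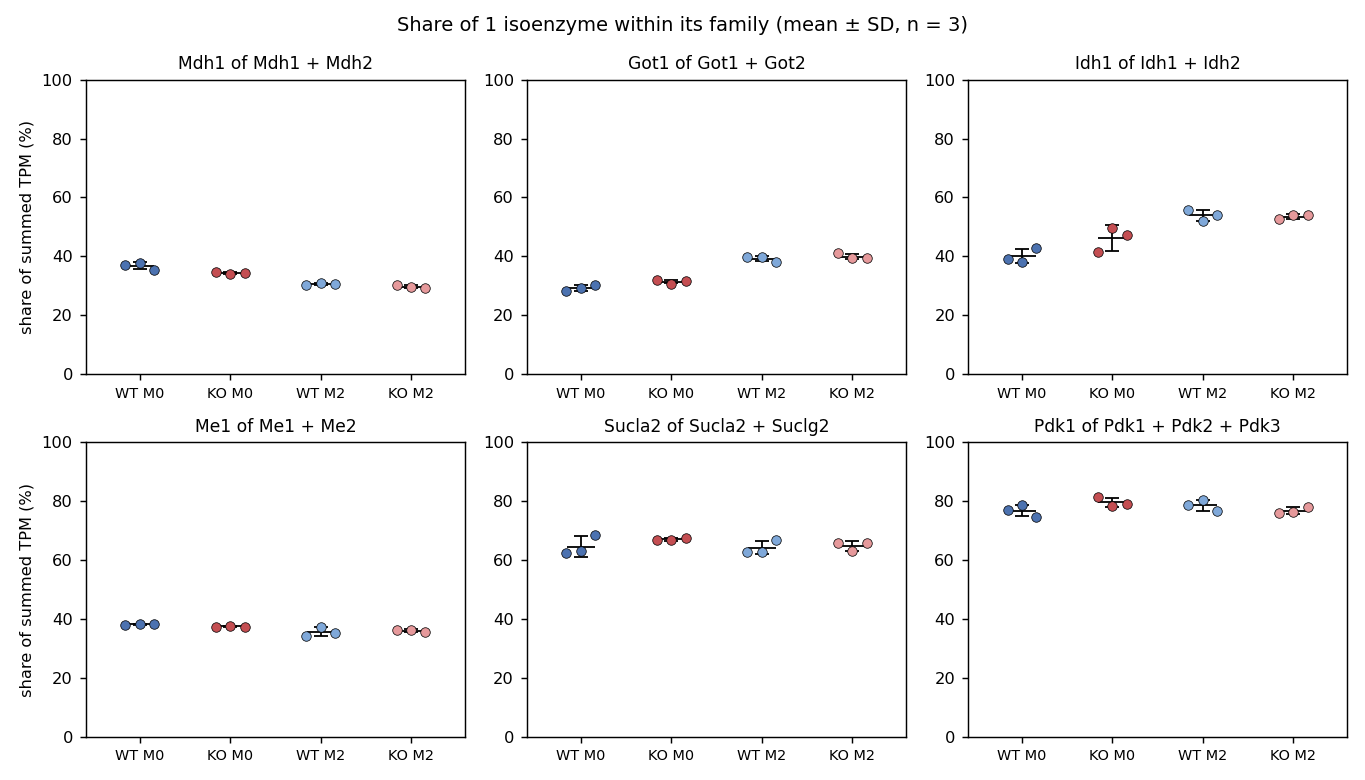
Share of 1 enzyme in the summed TPM of its family in each library (points, percent), with the mean and SD of the 3 libraries per group (bars). The shares of Got1 and Idh1 are higher and that of Mdh1 lower in M2 than in M0 in both genotypes, while those of Me1, Sucla2 and Pdk1 move by under 3 percentage points.

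Of 35 further genes near the pathway, such as carriers, assembly factors and lipoic acid enzymes, 34 were in the tables and 29 were tested. Dhtkd1, Me3, Ogdhl, Pck1 and Pdk4 were too low to test. In M0, 3 of the 29 were higher in KO and none lower, beside 9.78% of all genes called. Nnt, the proton-driven transhydrogenase that makes mitochondrial NADPH, measured 31.8, 32.4 and 29.3 CPM in WT M0 and 42.8, 41.8 and 41.8 in KO M0 (0.44 ± 0.05, adjusted p = 0.000402). It was also higher in M2, with 26.2, 26.8 and 27.8 CPM in WT and 36.6, 35.3 and 34.9 in KO (0.40 ± 0.05, adjusted p = 0.00357), as the single call of the list in M2 by edgeR on all 12 libraries. Both Nnt calls held without any single library.

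The other calls near the pathway in M0 lay near the threshold. Ldha, the lactate dehydrogenase subunit that competes for pyruvate, measured 918, 951 and 1064 CPM in WT M0 and 1135, 1162 and 1133 in KO M0 (0.23 ± 0.06, adjusted p = 0.0284). The call was lost in 5 of 6 fits without 1 library, with values of 0.18 to 0.24 and adjusted p-values of 0.06 to 0.103. On the 6 M0 libraries alone it was lost too (0.22, adjusted p = 0.0599). Slc25a20, the acylcarnitine carrier, measured 41.4, 38.7 and 39.6 CPM in WT M0 and 44.0, 44.3 and 48.5 in KO M0 (0.19 ± 0.05, adjusted p = 0.0395). Its call was lost in 5 of 6 fits without 1 library too, with values of 0.15 to 0.22 and adjusted p-values of 0.0542 to 0.165. The call of Slc25a20 was also lost without the filter on low counts (adjusted p = 0.0546) and by limma on log2(TPM + 1) (0.1). The same held on the 6 M0 libraries alone (0.0826) and without both libraries of WT mouse 3 (0.0646).

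With IL-4, 3 of the 29 genes near the pathway rose and 3 fell in WT, and 7 rose and 6 fell in KO, beside 50.0% and 52.8% of all genes called. Slc25a13, a mitochondrial aspartate/glutamate carrier, rose most. Gpt2, an alanine transaminase, and Pcca, a subunit of propionyl-CoA carboxylase, rose in both genotypes too, while Pck2, Slc25a10 and Nnt fell in both. Slc25a13 went from 61.9, 65.7 and 63.5 CPM to 168, 195 and 191 in WT, a 2.90-fold increase (1.53 ± 0.05, adjusted p = 2.19e-10), and from 69.5, 70.8 and 71.1 to 161, 160 and 162 in KO, a 2.28-fold increase (1.19 ± 0.05, adjusted p = 1.74e-09). By mouse the change was 1.44, 1.57 and 1.58 in WT and 1.21, 1.18 and 1.19 in KO. The difference between the responses was -0.34 ± 0.08 (adjusted p = 0.0292), and it was the single call of this list. The call was lost in 7 of the 12 fits without 1 library, with values of -0.36 to -0.30 and adjusted p-values of 0.0579 (without KO M0 replicate 1) to 0.0835 (without WT M2 replicate 2). It was also lost without both libraries of WT mouse 3 (-0.32, adjusted p = 0.0645) and by limma on log2(TPM + 1) (-0.35, adjusted p = 0.0654). Between the genotypes in M2, all KO libraries of Slc25a13 lay below those of WT (-0.20 ± 0.05, adjusted p = 0.0674). That difference was called by DESeq2 (-0.20, 0.0156) and without WT M2 replicate 1 (-0.26, 0.0196), and not in the other fits.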

How the data were processed

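RNA-Seq of poly(A) RNA from BMMs was analysed from 12 tables, 1 per library. The authors aligned the reads to GRCm38/mm10 with the Grape-nf pipeline after FastQC 0.11.2 and deposited expected counts, which are estimated counts that divide a read matching several genes. The authors also deposited TPM values, scaled for transcript length and library size, as a maximum-likelihood and a posterior mean estimate. The quantification tool is not given in the sources used here. The authors' DESeq2 1.40.2 tables of their own comparisons, which hold fold changes and p-values, served for gene symbols only (37570 of 38887 genes). Coordinates came from GENCODE M21 on GRCm38. The 38 genes and the gene lists were chosen with earlier results of these data known.

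Expected counts were rounded and fitted in R 4.3.3 with edgeR 4.0.16 (filterByExpr by group, TMM factors, 1 coefficient per group over 12 libraries, quasi-likelihood test). Adjustment over the 12846 genes tested followed Benjamini and Hochberg, with calls at an adjusted p under 0.05. Adjusted p-values are from this fit unless another is named. Standard errors were obtained by dividing the fold change by the root of F. The common biological coefficient of variation was 8.08%. In simulated counts with 200 genes shifted by a log2 of 1, 77.5% were called for KO against WT in M0, 82% in M2, 84% for IL-4 in WT, 80% for IL-4 in KO and 72.5% for the test of unequal responses, and 4.91%, 3.53%, 7.69%, 7.51% and 5.23% of the calls were false, above the nominal level for IL-4. Shares were compared with an exact permutation test in scipy 1.17.1.

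Libraries of the same mouse in M0 and M2 varied together, with correlations between their departures from the mean of the group of 0.331, 0.103 and 0.364 in WT and 0.166, 0.16 and 0.209 in KO, so the mouse number in the labels pairs M0 with M2. Alternatives were DESeq2 1.42.0, RLE size factors, no filter on low counts, limma 3.58.1 on log2(TPM + 1), a replicate block, the 6 libraries of a comparison alone, and leaving out each library. Leaving out both libraries of WT mouse 3 was chosen after seeing the data. Values per library were given for up to 25 genes called in at least 1 comparison, ordered by adjusted p, and for Acod1 and Pcx in any case.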

Additional observations from a re-analysis of the deposited data

Results flagged for a closer look

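Pdp1 responded unequally to IL-4 in WT and KO, by a test of the difference itself, at -0.72 ± 0.09 on the log2 scale (edgeR interaction, adjusted p = 0.00294). The log2 change was above 0 in 3 of 3 WT mice, where it was not called, and below 0 in 3 of 3 KO mice. The mean level went from 27.9 CPM (KO M0) to 18.7 (KO M2), beside 19.8 (WT M0) and 21.8 (WT M2).

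The response of Slc25a13 also differed, at -0.34 ± 0.08 (adjusted p = 0.0292). It rose in all 6 mice, less in each KO mouse than in any WT mouse, and the call was lost in 7 of the 12 fits without 1 library.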

How the results depend on the processing

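Of 2622 values of the 38 genes recomputed under the alternatives, 148 changed sign, none of them of a called gene. Some increases with IL-4 in KO were called in all fits but were as low as 0.13 for Mdh2, 0.20 for Got1, 0.12 for Dld and 0.15 for Sdhb. In the main fit these values were 0.21, 0.32, 0.20 and 0.23. Among the 38 genes, KO against WT in M0 gave 2 calls, and 6 with DESeq2, 4 with RLE size factors, 4 without the filter on low counts and 6 without both libraries of WT mouse 3. In M2 it gave 0 calls, and 1 with DESeq2, 1 without the filter, 1 with only the 6 libraries of the comparison and 2 without WT mouse 3. For the difference between the responses it gave 1 call, and 4 with DESeq2, 3 without the filter and 2 without WT mouse 3. Over all genes, limma on log2(TPM + 1) called 752 in M0 (1256 in the edgeR fit), 70 in M2 (344) and 113 for the difference (416). DESeq2 called 1560 in M0, 713 in M2 and 816 for the difference, and the fit with RLE size factors called 1287 in M0. Without the filter, 1203 of 20576 genes were called in M0, 422 in M2 and 444 for the difference. The 6 libraries alone called 165 in M2, and leaving out WT mouse 3 gave 1733 in M0, 1098 in M2 and 442 for the difference. The causes were not tested.

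With a replicate block by library number, which does not pair WT with KO (correlations of -0.0684 to 0.0403), M0 gave 4 calls among the 38 genes, with Pdk1 (0.21, adjusted p = 0.0428) and Idh1 (0.27, 0.0272) added, and M2 gave 1, Acod1 (1.31, 0.0285), beside 1322 and 413 of all genes. For the difference, a replicate block by mouse gave 4 calls, beside 1003 of all genes, and the block changed no other call of the 38 genes than these and those given in the report.

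Leaving out 1 library at a time gave 2 to 4 calls among the 38 genes in M0, 0 to 2 in M2, 16 to 20 for IL-4 in WT, 16 to 19 in KO and 1 to 2 for the difference. Over all genes it gave 461 (without WT M0 replicate 2) to 1461 calls in M0, 25 (without KO M2 replicate 3) to 298 in M2, and 183 (without WT M0 replicate 2) to 643 for the difference. For IL-4 it gave 5606 to 6182 calls over all genes in WT, beside 6428 with all libraries. In KO it gave 6034 to 6367, beside 6784. The difference was not fitted on 6 libraries, since it needs all 12. With posterior mean TPM, 31 of 38 mean levels moved by less than 1 SD and 7 by more, and all 32 shares stayed within 1 SD. Pdk2, at a lowest count of 79, and Pcx are the genes for which depth limits the precision most.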
